A study of Mus musculus with 12 samples.

Results

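The 8 genes described here make, break down, export or sense sphingosine-1-phosphate (S1P): the sphingosine kinases Sphk1 and Sphk2, the receptors S1pr1, S1pr2 and S1pr3, the S1P lyase Sgpl1, the S1P phosphatase Sgpp1 and the exporter Spns2. They were found by symbol, and all 8 were present among the 13552 genes measured in mouse hearts. Sphk1 was selected on its higher level in constricted knock-in hearts than in constricted wild-type hearts, and it entered the fit only through constricted hearts, so all of its values are a description without a test. The other 7 were chosen for their function in the same pathway, and for them no test is given between the 2 constricted groups either.

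RNA was sequenced from whole hearts of 12 C57BL/6 mice, 3 in each of 4 groups, collected 9 h after surgery. Transverse aortic constriction (TAC) ties off part of the aortic arch and loads the left ventricle with pressure, and sham mice had surgery without the constriction. Wild type (WT) sham, WT TAC, knock-in (KI) sham and KI TAC hearts were compared. KI mice carry Bcl-xL S14A, in which serine 14 of the survival protein Bcl-xL is replaced by alanine, in every cell of the body and on both alleles. The study worked with young adult males. Its methods describe bought wild-type males and knock-in mice from its own backcross, and the sources used here do not state whether the sequenced WT mice were littermates of the KI mice. Mice are named by the numbers in their labels. Libraries held 23650545 to 32454734 reads on genes, with 30298691 to 31677824 in KI TAC and 25714598 to 29611082 in WT TAC hearts. Values are RPKM, the number of reads divided by the exon length of the gene and by the depth of the library. The exon length takes in all annotated transcripts of a gene, so ratios, shares and orders between genes are approximate. All 6 cardiomyocyte markers and all 6 endothelial markers looked at were detected in every heart, with Myh6 between 1392 and 4836 RPKM and the endothelial cadherin Cdh5 between 88.5 and 140.4 RPKM. Bcl2l1, the gene of Bcl-xL, lay between 24.5 and 37.0 RPKM in KI TAC hearts and between 6.59 and 19.1 RPKM in the other 9, and a gene total cannot show the exchanged codon.

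S1P is a lipid signal made from the sphingosine backbone of ceramide. Sphingosine kinases phosphorylate sphingosine inside the cell, Spns2 and Mfsd2b carry the product out, and G protein coupled receptors on the surface of the same or neighbouring cells sense it. S1pr1 couples to Gi and is abundant on endothelial cells, where it holds vessel walls tight, while S1pr2 and S1pr3 also couple to Gq and G12/13. S1P is removed by dephosphorylation back to sphingosine (Sgpp1 and the lipid phosphatases) and by cleavage by the lyase Sgpl1, which is the exit from sphingolipid metabolism. In bulk hearts, a lower level can come from fewer cells of a type or from less RNA per cell, and these cannot be told apart.

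Because Sphk1 is the member whose level differed most between groups, the sequences around its annotated starts are shown first. Sphk1 (ENSMUSG00000061878) lies on the plus strand at chr11:116530925-116536674 (GRCm38), with 4 exon blocks and 16 annotated transcripts. RefSeq (GRCm38.p6) gives 5 promoter windows of 300 bases for it, each from 250 bases before to 50 after a start, and 3 that stand for the separate clusters are printed 5′ to 3′. Capitals mark motifs searched on both strands: the TATA box TATAAA, the AP-1 site TGANTCA, the cyclic AMP response element (CRE) TGACGTCA, the GC box GGGCGG, the E-box CACGTG and the Egr site GCGGGGGCG. The windows lie at chr11:116530850-116531149, chr11:116531587-116531886 and chr11:116532194-116532493.
Sphk1 window with the TATA box: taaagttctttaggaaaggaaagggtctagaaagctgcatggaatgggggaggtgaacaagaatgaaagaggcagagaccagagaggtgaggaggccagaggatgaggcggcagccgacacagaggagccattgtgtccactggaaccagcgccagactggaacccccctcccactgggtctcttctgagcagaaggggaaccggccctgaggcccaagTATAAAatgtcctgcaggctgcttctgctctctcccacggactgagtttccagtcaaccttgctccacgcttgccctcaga
Sphk1 window with the AP-1 site: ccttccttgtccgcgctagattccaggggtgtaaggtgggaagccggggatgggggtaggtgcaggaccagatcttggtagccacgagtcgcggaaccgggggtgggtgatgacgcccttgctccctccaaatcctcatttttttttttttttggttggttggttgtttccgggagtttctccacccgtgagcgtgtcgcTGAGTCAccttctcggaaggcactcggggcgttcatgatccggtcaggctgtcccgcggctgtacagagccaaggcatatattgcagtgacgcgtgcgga
Sphk1 window with the E-box: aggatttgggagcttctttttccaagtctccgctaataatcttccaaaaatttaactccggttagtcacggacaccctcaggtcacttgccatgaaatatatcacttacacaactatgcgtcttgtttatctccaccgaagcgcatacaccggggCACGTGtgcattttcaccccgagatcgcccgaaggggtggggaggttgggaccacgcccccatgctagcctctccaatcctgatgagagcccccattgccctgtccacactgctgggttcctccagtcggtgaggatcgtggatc
The TATA box lies 31 bases before its start, the AP-1 site 50 bases before its start and the E-box 95 bases before its start, counted from the first base of the motif. The remaining 2 windows overlap the last 2 of these and hold the same AP-1 site and the same E-box. Of 32817 mouse promoter windows of this length, 13.6% held a TATA box, 7.81% an AP-1 site and 7.15% an E-box, so each of these matches is common. A match describes the letters and is no evidence that a factor binds there, and the gene totals do not tell which of the 5 starts was used.

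Sphk1 was weakly expressed in sham hearts of both genotypes. It stood at 0.587, 0.425 and 0.274 RPKM in WT sham mice 1, 2 and 3, and at 0.660, 0.430 and 0.426 RPKM in KI sham mice 1, 2 and 3. The 2 sham groups overlapped, with a ratio of group means of 1.18 between KI and WT sham hearts. After TAC, WT mice 7, 9 and 10 had 2.02, 6.01 and 1.13 RPKM, each above every sham heart. KI TAC mice 5, 6 and 7 had 48.5, 17.7 and 8.53 RPKM, each above every WT TAC heart. The mice within both TAC groups differed widely, with a mean of 3.05 ± 2.60 RPKM in WT TAC and 24.9 ± 20.9 RPKM in KI TAC hearts (SD, n = 3).

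The ratio of group means was 7.13 between WT TAC and WT sham, 49.3 between KI TAC and KI sham and 8.15 between KI TAC and WT TAC hearts. The corresponding ratios of medians, on which a single mouse weighs less, were 4.75, 41.1 and 8.76. On the log2(RPKM + 1) scale, which shrinks changes of weakly expressed genes, these differences were 1.32, 3.78 and 2.54 (SE of the fit 0.48 each). The WT change was 0.83 without WT TAC mouse 9 and 1.69 without WT TAC mouse 10, while leaving out mouse 5 or 7 of the KI TAC group gave a KI change of 3.15 or 4.34. The KI TAC to WT TAC difference was 1.91 without KI TAC mouse 5, 2.17 without WT TAC mouse 10 and 3.10 without KI TAC mouse 7. Sphk1 reached the expression filter of 1 RPKM in 6 mice, all of them TAC mice, so it was carried into the fit by the groups in which it is high. Its reads numbered from 32 to 7014 per library, and 192 bases (4.0%) of its exons overlap the antisense gene Gm29292. The plot of member levels by mouse shows Sphk1 on a log axis beside the others.

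**Figure D1:**
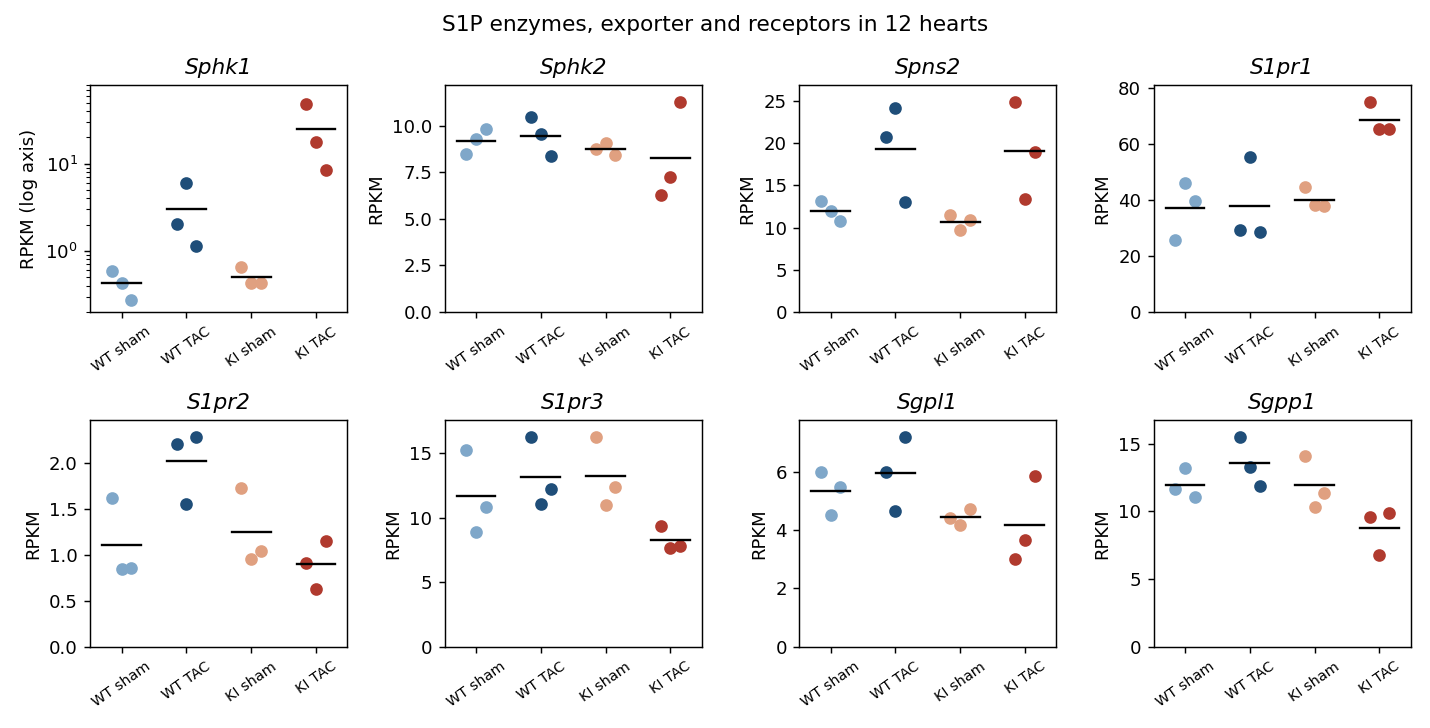
RPKM of the 8 genes in each heart (points, 3 mice per group, mouse numbers rising from left to right within a group) with the group mean (line); the Sphk1 axis is logarithmic and the other axes start at 0. Sphk1 in KI TAC hearts sits between 8.53 and 48.5 RPKM, above all other hearts, while the panels of Sphk2 and Sgpl1 show overlapping groups.

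Sphk2, the other sphingosine kinase, is found in the nucleus and mitochondria as well as the cytosol. It stood at 8.46, 9.29 and 9.82 RPKM in WT sham, 10.5, 9.55 and 8.37 in WT TAC, 8.78, 9.09 and 8.42 in KI sham and 6.29, 7.27 and 11.3 in KI TAC hearts. All 4 groups overlapped, and KI TAC mouse 7, lowest of its group for Sphk1, was highest for Sphk2. The fitted change after TAC was 0.036 in WT (95% interval −0.37 to 0.44) and −0.11 in KI hearts (−0.51 to 0.29). The sign depended on scaling, with −0.019 in WT hearts under quantile normalization and 0.011 in KI hearts under median-ratio scaling. Leaving out TAC mouse 7 or 10 gave −0.033 or 0.11 in WT hearts, and leaving out TAC mouse 5 or 7 gave 0.047 or −0.33 in KI hearts. Sphk2 (ENSMUSG00000057342, chr7:45709467-45718002, minus strand) shares 539 of its 4159 exon bases with Dbp and 373 with Rpl18, both on the opposite strand. The libraries were strand specific, while the strand setting of the counting is not given in the sources used here. Dbp, a clock output factor, averaged 85.5 RPKM in WT sham and 15.3 in KI TAC hearts, and its part in the Sphk2 values was not tested.

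Sphk1 made up 2.72% to 6.99% of the summed kinase RPKM in the 6 sham hearts, 11.9% to 38.6% in WT TAC and 43.0% to 88.5% in KI TAC hearts. In KI TAC mice 5 and 6 the Sphk1 level exceeded that of Sphk2, and in mouse 7 it was 0.756 times as high. In no WT TAC heart did it reach Sphk2, the largest ratio being 0.630 in mouse 9.

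Spns2, the exporter that releases S1P from endothelial cells, was the only 1 of the other 7 members to pass the threshold after TAC, and it did so in KI hearts. It stood at 11.5, 9.67 and 10.9 RPKM in KI sham mice and at 24.9, 13.4 and 19.0 RPKM in KI TAC mice 5, 6 and 7. Each KI TAC heart lay above each KI sham heart, and the fitted log2 fold change was 0.74 (SE 0.24, 95% interval 0.23 to 1.26, limma adjusted p = 0.0388). The share of all genes with such full separation of the KI groups was not counted. The same holds for S1pr1, S1pr3 and Sgpp1 below. In KI hearts 8.57% of the 11240 genes tested were called higher after TAC and 14.7% lower, so 1 call among 7 members is near the background. In WT hearts Spns2 stood at 13.2, 11.97 and 10.7 RPKM in sham mice and at 20.7, 24.2 and 13.1 RPKM in TAC mice 7, 9 and 10. There the groups overlapped through TAC mouse 10, and the change was 0.61 (SE 0.24, 95% interval 0.10 to 1.12, limma adjusted p = 0.115). The change did not differ between genotypes beyond its error (interaction 0.13, 95% interval −0.60 to 0.86, limma adjusted p = 0.870).

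The Spns2 call in KI hearts held in 10 of 18 alternatives. Without KI TAC mouse 5 the KI change was 0.54 (adjusted p = 0.148), without KI TAC mouse 7 it was 0.72 (0.0735), and without KI sham mice 1, 2 or 3 it was 0.79 (0.0617), 0.68 (0.103) and 0.76 (0.0968). Leaving out WT sham mouse 2 or 3 or WT TAC mouse 7, which enter only the shared estimate of spread, gave adjusted p of 0.0535, 0.0517 and 0.0509 at the same fold change. In WT hearts the change was 0.85 (adjusted p = 0.0273) without TAC mouse 10. Spns2 (ENSMUSG00000040447, chr11:72451638-72489904, minus strand) shares 131 exon bases (3.2%) with Mybbp1a on the opposite strand, which averaged 26.4 RPKM in KI sham and 41.9 in KI TAC hearts, and its part in the Spns2 values was not tested.

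S1pr1, the Gi-coupled receptor of the endothelium, was the most abundant member in all 4 groups. WT hearts had 25.8, 46.2 and 39.8 RPKM after sham surgery and 29.2, 55.4 and 28.6 RPKM after TAC, with overlap between the groups although WT TAC mouse 9 lay above and WT sham mouse 1 below all hearts of the other group. KI hearts had 44.5, 38.2 and 37.7 RPKM after sham surgery and 75.1, 65.2 and 65.2 RPKM after TAC, and each KI TAC heart lay above every other heart of the series. The fitted change was −0.011 (SE 0.26) in WT and 0.76 (SE 0.26, 95% interval 0.20 to 1.32) in KI hearts. The WT value had no stable sign, running from −0.32 to 0.16 with 1 mouse left out. The KI change did not pass the threshold (limma adjusted p = 0.0506), and the interaction of 0.77 (95% interval −0.026 to 1.56, limma adjusted p = 0.349) did not either. With limma-voom on recovered reads the KI change was 0.77 (adjusted p = 0.0483), and in a fit of the 2 KI groups alone its adjusted p was 0.0269. It was also called without WT sham mouse 1 (0.0351), WT TAC mouse 9 (0.0203) or WT TAC mouse 10 (0.0422). S1pr1 (ENSMUSG00000045092) lies at chr3:115710433-115715072 on the minus strand.

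The summed RPKM of Pecam1, Cdh5, Kdr, Tie1, Tek and Emcn was 250.2 to 320.9 in KI sham and 244.3 to 273.5 in KI TAC hearts, so the groups overlapped. By limma 0 of these 6 markers were called in either genotype, with 0 in WT and 1 in KI hearts at an unadjusted p under 0.05, and limma-voom called 0 in WT and 1 in KI hearts. Of all genes, 27.9% in WT and 36.8% in KI hearts reached that unadjusted p. That marker was Pecam1, with a KI change of 0.50 by limma (adjusted p = 0.0502) and 0.51 by limma-voom (adjusted p = 0.0483), while the other 5 lay between −0.33 and −0.037 by limma. The part of endothelial cells in the S1pr1 values was not tested. S1pr1 amounted to 0.238, 0.267 and 0.282 of that sum in KI TAC mice 7, 6 and 5, and to between 0.0777 and 0.192 in the other 9 hearts. This ratio is a description that shares its numerator with the S1pr1 levels.

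S1pr2, which couples to G12/13, was the weakest of the 3 receptors. It stood at 1.62, 0.849 and 0.863 RPKM in WT sham mice and at 2.21, 1.56 and 2.29 RPKM in WT TAC mice 7, 9 and 10. WT TAC hearts were above the WT sham mean in 3 of 3 mice but overlapped with sham mouse 1, and the change was 0.53 (SE 0.18, 95% interval 0.13 to 0.92, limma adjusted p = 0.0771). Without WT sham mouse 1 it was 0.69 (adjusted p = 0.0384). KI hearts had 1.73, 0.960 and 1.044 RPKM after sham surgery and 0.911, 0.630 and 1.15 RPKM after TAC. These groups overlapped, all 3 KI TAC hearts lay below the KI sham mean, and the fitted difference was −0.24 (95% interval −0.63 to 0.16, limma adjusted p = 0.372). Its size rested on single mice, with −0.087 when KI sham mouse 1 and −0.13 when KI TAC mouse 6 was left out. It was −0.11 after quantile normalization, −0.42 with a pseudocount of 0.1 and −0.45 by limma-voom, and the last 2 settings gave a WT change of 0.85 and 0.88. The interaction was −0.76 (SE 0.26, unadjusted p = 0.0106, limma adjusted p = 0.220). The RefSeq window of S1pr2 (chr9:20976744-20977043, minus strand, inside and before ENSMUSG00000043895 at chr9:20962361-20976781) is shown because this receptor had all WT TAC hearts above and all KI TAC hearts below their sham means, a pattern not counted over all genes. It holds a CRE 181 bases before the start and a GC box 8 bases after it.
S1pr2 window: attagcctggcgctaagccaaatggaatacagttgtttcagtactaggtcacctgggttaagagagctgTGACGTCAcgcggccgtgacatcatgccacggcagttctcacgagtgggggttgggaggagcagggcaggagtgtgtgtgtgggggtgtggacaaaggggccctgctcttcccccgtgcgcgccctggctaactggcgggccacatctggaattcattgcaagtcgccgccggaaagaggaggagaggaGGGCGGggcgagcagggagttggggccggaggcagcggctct
CRE letters were in 1.79% and GC boxes in 35.6% of all promoter windows. Among the other members a CRE was in 1 of the 2 Sphk2 windows, 3 bases after its start, and in none of the windows of S1pr3, Sgpl1, Sgpp1, Spns2 and Sphk1.

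S1pr3 couples to Gi, Gq and G12/13 and is prominent in vascular smooth muscle and the heart. WT hearts had 15.2, 8.89 and 10.8 RPKM after sham surgery and 16.2, 11.03 and 12.2 RPKM after TAC, with overlap and a change of 0.18 (limma adjusted p = 0.628). Leaving out sham mouse 1 or 2 gave 0.37 or 0.016, and leaving out TAC mouse 7 or 9 gave 0.027 or 0.29. KI hearts had 16.3, 10.97 and 12.4 RPKM after sham surgery and 9.36, 7.68 and 7.81 RPKM after TAC. All KI TAC hearts lay below all KI sham hearts, a separation not counted over all genes. The change of −0.60 (SE 0.22, 95% interval −1.06 to −0.14) did not pass the threshold (limma adjusted p = 0.0583). Without WT sham mouse 1 its adjusted p was 0.0407, and under median-ratio scaling the change was −0.48 (adjusted p = 0.121). The interaction was −0.78 (unadjusted p = 0.0232, limma adjusted p = 0.262). S1pr3 (ENSMUSG00000067586) lies at chr13:51408639-51422797 on the plus strand.

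The S1pr1 share of the receptor RPKM varied least between mice in KI TAC hearts. S1pr1 made up 87.92%, 87.96% and 88.70% of the summed RPKM of S1pr1, S1pr2 and S1pr3 in KI TAC mice 7, 5 and 6. Its share was 71.2% to 76.2% in KI sham, 60.5% to 82.6% in WT sham and 61.3% to 81.5% in WT TAC hearts. S1pr3 held 10.4% to 10.97% in KI TAC and 15.9% to 35.7% in the other hearts. S1pr2 held 0.856% to 1.55% in KI TAC and 1.52% to 5.31% in the other hearts, so its ranges touched. Including the leukocyte receptor S1pr4 and the oligodendrocyte receptor S1pr5, at 0.714 to 2.51 and 0.132 to 0.847 RPKM, lowered the mean S1pr1 share in KI TAC hearts to 86.6%. The SD of that share was then 1.14 in KI TAC and 1.74 in KI sham hearts, against 0.436 and 2.52 with 3 receptors. These shares use the constricted hearts that chose Sphk1 and are given without a test.

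**Figure D2:**
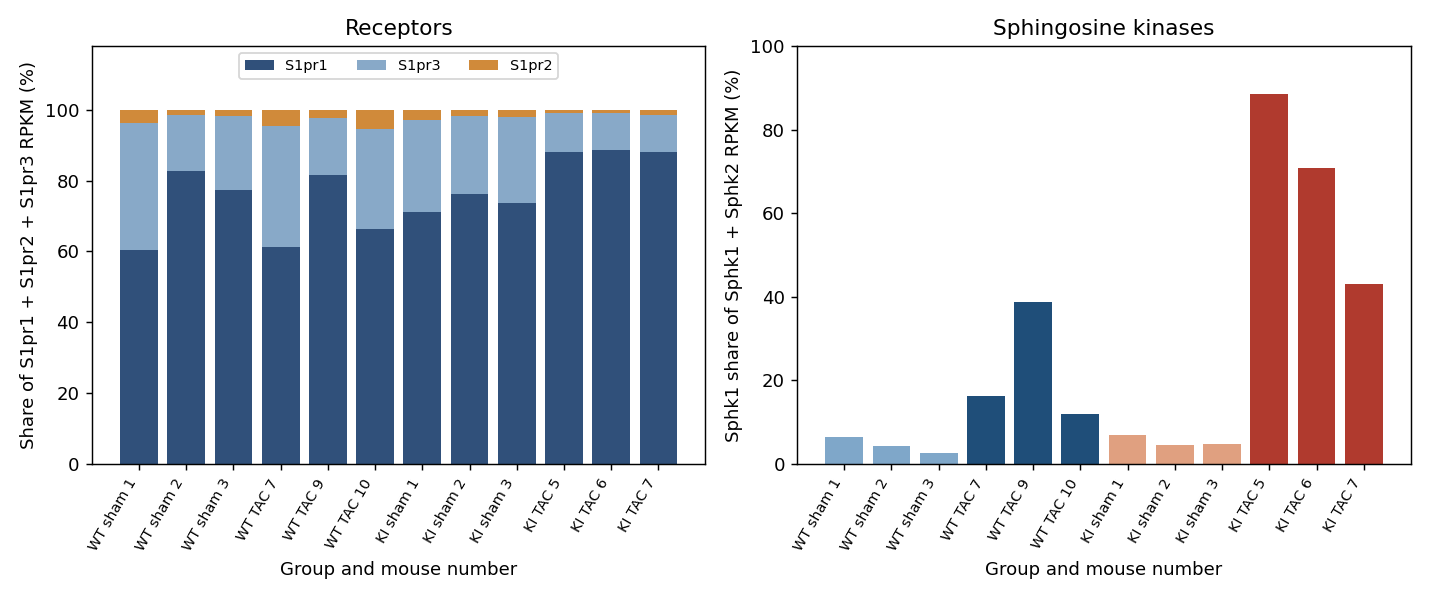
Share of each receptor in the summed RPKM of S1pr1, S1pr2 and S1pr3 (left, stacked bars) and of Sphk1 in the summed RPKM of both sphingosine kinases (right) in each of the 12 hearts, in percent. The 3 KI TAC hearts have S1pr1 shares of 87.9% to 88.7% and Sphk1 shares of 43.0% to 88.5%.

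Neither enzyme that removes S1P was called after TAC in either genotype. Sgpp1, the phosphatase of the endoplasmic reticulum, had 11.6, 13.2 and 11.1 RPKM in WT sham, 15.5, 13.3 and 11.9 in WT TAC, 14.1, 10.3 and 11.4 in KI sham and 9.61, 6.79 and 9.87 in KI TAC hearts. Each KI TAC heart lay below every other heart, yet the KI change of −0.41 (SE 0.18, 95% interval −0.81 to −0.017) did not pass the threshold (limma adjusted p = 0.121), and it was −0.26 with KI TAC mouse 6 left out. The WT change was 0.16 (adjusted p = 0.603), or 0.065 and 0.25 with TAC mouse 7 or 10 left out, and the interaction −0.57 (unadjusted p = 0.0451, limma adjusted p = 0.327). Sgpl1, the lyase, had 5.99, 4.53 and 5.47 RPKM in WT sham, 6.01, 4.66 and 7.21 in WT TAC, 4.41, 4.18 and 4.72 in KI sham and 3.02, 3.66 and 5.85 in KI TAC hearts. The Sgpl1 groups overlapped, with changes of 0.13 in WT (95% interval −0.31 to 0.56) and −0.11 in KI hearts (−0.54 to 0.33). Without TAC mouse 10 or 9 the WT value was −0.0011 or 0.27, and without TAC mouse 5 or 7 the KI value was 0.057 or −0.33. The KI value was −0.013 after quantile normalization and −0.0016 after median-ratio scaling. Sgpp1 (ENSMUSG00000021054) lies at chr12:75714249-75735729 and Sgpl1 (ENSMUSG00000020097) at chr10:61098642-61147703, both on the minus strand.

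Over the 7 members other than Sphk1, 0 were called by limma in WT hearts after TAC, with 2 at an unadjusted p under 0.05 (S1pr2 and Spns2) and 0 by limma-voom. Of all genes tested, 6.96% were called higher and 4.6% lower in WT hearts and 27.9% had an unadjusted p under 0.05, so both counts are near the background. The median change of the 7 was 0.16 in WT, where all 11240 genes had a median of 0.035, and −0.11 in KI hearts, where all genes had −0.10. In KI hearts 1 of 7 was called by limma and 2 by limma-voom, while of all genes limma called 2620 and limma-voom 2730. At an unadjusted p under 0.05 there were 4 of 7 by limma (Spns2, S1pr1, S1pr3 and Sgpp1). That unadjusted p was reached by 36.8% of all genes in KI hearts, and with 7 members nothing is read from the difference between these shares. The split of the background calls depends on scaling: 36.8% of KI calls were higher with values as deposited, 48.3% after quantile normalization and 51.5% after median-ratio scaling, against 60.2%, 48.1% and 51.1% in WT hearts. Between KI sham and WT sham hearts 0 of the 7 members other than Sphk1 were called, 0 at an unadjusted p under 0.05 and 0 by limma-voom, against 0.0178% called and 0.329% at that unadjusted p among all genes. For the interaction of genotype and surgery 0 of 7 were called, and by limma-voom also 0, while 0 genes (0%) of the whole table were called. At an unadjusted p under 0.05 the interaction held 3 of 7 members (S1pr2, S1pr3 and Sgpp1) against 14.8% of all genes.

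**Figure D3:**
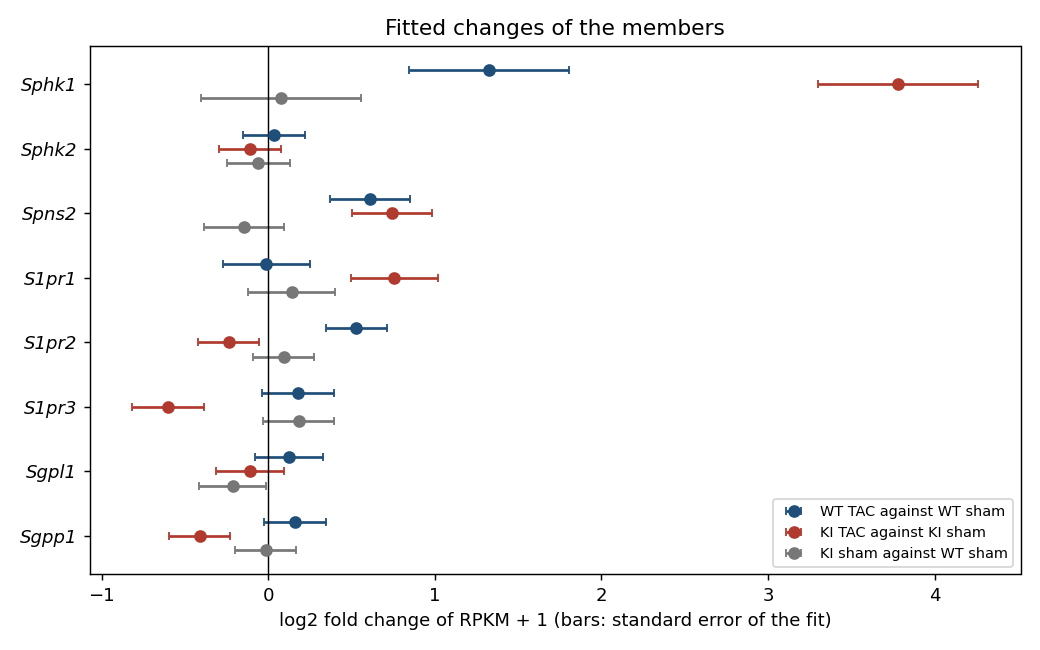
Fitted log2 fold change of RPKM + 1 (points) with the standard error of the fit (bars) for each member for the change after TAC in WT hearts, the change after TAC in KI hearts and the difference between the sham groups, 3 mice per group. Sphk1 stands at 1.32 and 3.78 after TAC and is shown without a test in all 3 comparisons, and among the others Spns2 in KI hearts at 0.74 is the value that passed the threshold.

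Set side by side without a test, KI TAC hearts differed from WT TAC hearts by 0.91 on the log2 scale for S1pr1, −0.67 for S1pr2, −0.60 for S1pr3, −0.59 for Sgpp1, −0.45 for Sgpl1, −0.20 for Sphk2 and −0.015 for Spns2. The Spns2 difference had no stable sign, at −0.26 when mouse 10 of the WT TAC group was left out and at −0.22 and −0.032 when mouse 5 or 7 of the KI TAC group was. It was 0.053 and 0.16 with mouse 7 or 9 of the WT TAC group left out and 0.21 with mouse 6 of the KI TAC group left out. It was 0.064 after quantile normalization and 0.13 after median-ratio scaling. The Sphk2 difference was −0.049 and −0.43 with mouse 5 or 7 of the KI TAC group left out, −0.14 with mouse 7 of the WT TAC group left out, and −0.094 and −0.066 under those scalings. Leaving out mouse 5 of the KI TAC group brought the Sgpl1 difference to −0.28. The S1pr2 difference was −1.10 with a pseudocount of 0.1 and −1.19 with limma-voom. The median of all genes in this comparison was −0.12. S1pr1 was the only 1 of these 7 with every KI TAC heart above every WT TAC heart, and S1pr2, S1pr3 and Sgpp1 had every KI TAC heart below every WT TAC heart. Of all genes tested, 10.1% had every KI TAC heart above and 19.4% every KI TAC heart below the WT TAC hearts. Ordered by mean level, WT sham hearts had S1pr1 at 37.3 RPKM, then Sgpp1, Spns2 and S1pr3 between 11.6 and 11.98 RPKM with overlapping ranges, then Sphk2 at 9.19, Sgpl1 at 5.33, S1pr2 at 1.11 and Sphk1 at 0.429 RPKM. KI sham hearts had S1pr1 first and Sphk1 last as well. In KI TAC hearts Sphk1 stood second by mean, but its median of 17.7 RPKM was below the 18.99 RPKM of Spns2. Its range there overlapped with those of Spns2, Sgpp1, S1pr3 and Sphk2. In WT TAC hearts Sphk1 stood seventh, overlapping with Sgpl1 above and S1pr2 below it.

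Within the TAC groups, some members were highest in the same mouse. WT TAC mouse 9 and KI TAC mouse 5 had the most Sphk1, the most S1pr1 and the most Spns2 of their groups. Sphk2 and Sgpp1 were highest in mouse 7 of both groups, and S1pr3 in WT TAC mouse 7 and KI TAC mouse 5. S1pr2 and Sgpl1 were highest in WT TAC mouse 10 and KI TAC mouse 7. With 3 mice per group nothing is read from these matches. Within each TAC group the summed neutrophil markers had the same order of mice as Sphk1. The summed RPKM of S100a8, S100a9 and Csf3r (3 of 4 listed markers were in the table, without Retnlg) was 9.87, 5.37 and 3.69 in WT TAC mice 9, 7 and 10 and 20.3, 11.3 and 4.18 in KI TAC mice 5, 6 and 7. The order did not hold across the groups, since KI TAC mouse 7 had more Sphk1 but a lower sum than WT TAC mice 7 and 9. S100a9 ran from 1.54 to 4.40 RPKM in WT TAC and from 2.55 to 12.3 in KI TAC hearts, whereas Csf3r ran from 1.21 to 2.06 in WT TAC and from 0.483 to 1.87 in KI TAC hearts. The sum was 0.395 to 1.27 in the 6 sham hearts, where S100a8 was listed at 0 in 1 WT sham and S100a9 in 1 KI sham heart. Their part in the Sphk1 level was not tested. The 4 macrophage markers had median sums of 59.0 RPKM in WT TAC, 46.4 in KI TAC, 38.0 in WT sham and 40.9 in KI sham hearts. Fibroblast markers summed to 135.2 to 692.6 RPKM in WT TAC, 90.2 to 163.7 in KI TAC and 108.6 to 234.8 in sham hearts. Cardiomyocyte markers summed to 3921 to 5188 RPKM in WT TAC hearts and to 5891 to 9380 in the others. Smooth muscle and pericyte markers lay between 85.5 and 214.4 RPKM, red blood cell globins between 71.7 and 246.4 RPKM, and none of the 4 lymphocyte markers was in the table.

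The 5 genes whose level over the 12 mice was most like that of Sphk1 were Abra, Atf3, Smad1, Rnf115 and Map3k8, with Pearson's r of 0.989, 0.987, 0.984, 0.983 and 0.982 on the log2(RPKM + 1) scale. These are descriptions over mice that fall into sham and TAC groups, and which share those group differences. Abra, an actin-binding protein of striated muscle, had a mean of 8.94 RPKM in WT sham, 23.5 in WT TAC, 9.62 in KI sham and 104 in KI TAC hearts. Atf3, a stress-induced bZIP factor, had 3.04, 14.1, 3.71 and 218.5 RPKM in the same order, and its KI TAC hearts ran from 27.9 to 545.4 RPKM. Rnf115, a ubiquitin ligase, had 4.12, 12.4, 4.30 and 43.3 RPKM. Smad1, which carries BMP signals, ranged from 2.82 to 13.6 RPKM and Map3k8, a MAP kinase kinase kinase, from 0.965 to 4.21 RPKM over all hearts.

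The wider pathway was followed with a list of 55 genes for S1P breakdown and export, other receptors, ceramide and sphingomyelin metabolism, receptor coupling and Sphk1 partners. Of these 48 were in the table and 40 passed the expression filter. In WT hearts 4 of 40 were higher after TAC and 0 lower, with a median change of 0.23 against 0.035 over all genes, of which 6.96% were called higher and 4.6% lower. At an unadjusted p under 0.05, which 27.9% of all genes reached, 13 were higher and 1 lower. In the same hearts limma-voom called 4, and without the filter 1 was called lower. In KI hearts 5 were higher and 3 lower, with a median of 0.018 against −0.10 over all genes, of which 8.57% were called higher and 14.7% lower. There 12 were higher and 6 lower at an unadjusted p under 0.05, which 36.8% of all genes reached, and limma-voom called 8. The number higher in KI hearts depended on scaling, with 8 of 40 after quantile normalization, against 12.1% of all genes, and 10 of 40 after median-ratio scaling, against 12.8% of all genes. No listed gene passed the threshold for the interaction, which held 7 of 40 at an unadjusted p under 0.05 by limma, against 14.8% of all genes, and called 0 by limma-voom. Nothing particular to the list is read from these shares.

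At the head of the pathway, Sptlc2, a catalytic subunit of serine palmitoyltransferase, was higher after TAC in both genotypes. It went from 1.88 to 2.01 RPKM in WT sham to 2.74 to 3.83 in WT TAC hearts (log2 fold change 0.54, SE 0.13, limma adjusted p = 0.0194) and from 1.80 to 1.997 in KI sham to 3.95 to 4.57 RPKM in KI TAC hearts (0.88, adjusted p = 0.000661). The WT call was lost without WT sham mouse 1, 2 or 3 (adjusted p 0.0539, 0.0709 and 0.0602), and the KI call held in 18 of 18 alternatives. Cers2, the synthase of very long chain ceramides, rose from 13.003 to 17.1 RPKM in WT sham to 22.9 to 25.0 in WT TAC hearts (0.63, adjusted p = 0.0456) and from 12.8 to 16.7 in KI sham to 19.5 to 28.2 RPKM in KI TAC hearts (0.63, adjusted p = 0.0270). The WT call of Cers2 held in 9 of 18 alternatives and was lost when any 1 of the 6 WT mice, KI sham mice 2 or 3 or KI TAC mouse 6 was left out, with adjusted p of 0.0504 to 0.169. The KI call was lost without KI TAC mouse 7 (0.0814), KI sham mouse 2 (0.0779) or KI sham mouse 3 (0.108) and in the fit of 2 groups (0.0675). Sgms1, a sphingomyelin synthase, was also called higher and Cers4, another ceramide synthase, called lower in KI hearts. Both calls were lost in the fit of 2 groups and with KI sham mouse 2 or 3 left out, and that of Cers4 also with KI TAC mouse 5, KI TAC mouse 6 or KI sham mouse 1 left out, with adjusted p up to 0.0685 for Sgms1 and 0.111 for Cers4. Of 4 tested genes for S1P breakdown (Plpp1, Plpp2, Plpp3 and Aldh3a2) and 3 ceramidases (Asah1, Asah2 and Acer2), 0 were called by limma or by limma-voom in either genotype, with 2 and 0 of them at an unadjusted p under 0.05 in WT and 2 and 1 in KI hearts, against 27.9% and 36.8% of all genes.

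Among the G proteins and kinases through which the receptors signal, Rock2, a serine/threonine kinase that acts on the cytoskeleton, was higher after TAC in both genotypes. It went from 2.17 to 5.49 RPKM in WT sham to 8.10 to 13.99 in WT TAC hearts (1.11, SE 0.29, limma adjusted p = 0.0241) and from 4.71 to 5.91 in KI sham to 9.39 to 17.2 RPKM in KI TAC hearts (1.10, adjusted p = 0.0144). The WT call was lost without WT sham mouse 1 (0.77, adjusted p = 0.0917) or WT TAC mouse 9 (0.87, 0.0896), under median-ratio scaling (1.07, 0.0577) and in the fit of 2 groups (0.0524), and the KI call without KI TAC mouse 5 (0.89, 0.0632). Rock1, the related kinase on the list, was called in neither genotype. Its change was 0.76 in WT (limma adjusted p = 0.115) and −0.64 in KI hearts (0.135), with an interaction of −1.40 (0.175). Gnai3, an alpha subunit of Gi, was called higher in WT (0.70, adjusted p = 0.0250) and in KI hearts (0.56, adjusted p = 0.0402). The WT call was lost without WT sham mouse 1 or 3 or WT TAC mouse 7 or 10 (adjusted p 0.0593 to 0.0982). The KI call was lost in 9 of 18 alternatives, namely the fit of 2 groups and those without WT sham mouse 2 or 3, WT TAC mouse 7, KI sham mouse 2 or 3 or any 1 KI TAC mouse (0.0504 to 0.132). Gna12, an alpha subunit to which S1pr2 and S1pr3 couple, was the most abundant of these, at 143.8 to 160.4 RPKM in KI sham and 82.8 to 87.2 RPKM in KI TAC hearts. It fell by 0.83 on the log2 scale in KI hearts (SE 0.17, adjusted p = 0.00381), and this held in 18 of 18 alternatives. In WT hearts the Gna12 difference was −0.34 (adjusted p = 0.209), and its interaction was −0.49 (adjusted p = 0.362), so a difference between genotypes was not shown. Gna11, a Gq family subunit, went from 48.6 to 61.6 RPKM in KI sham to 28.6 to 41.5 RPKM in KI TAC hearts (−0.77, adjusted p = 0.0169), a call lost with KI TAC mouse 5 or 6 or KI sham mouse 2 or 3 left out (0.0526 to 0.0683).

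**Figure D4:**
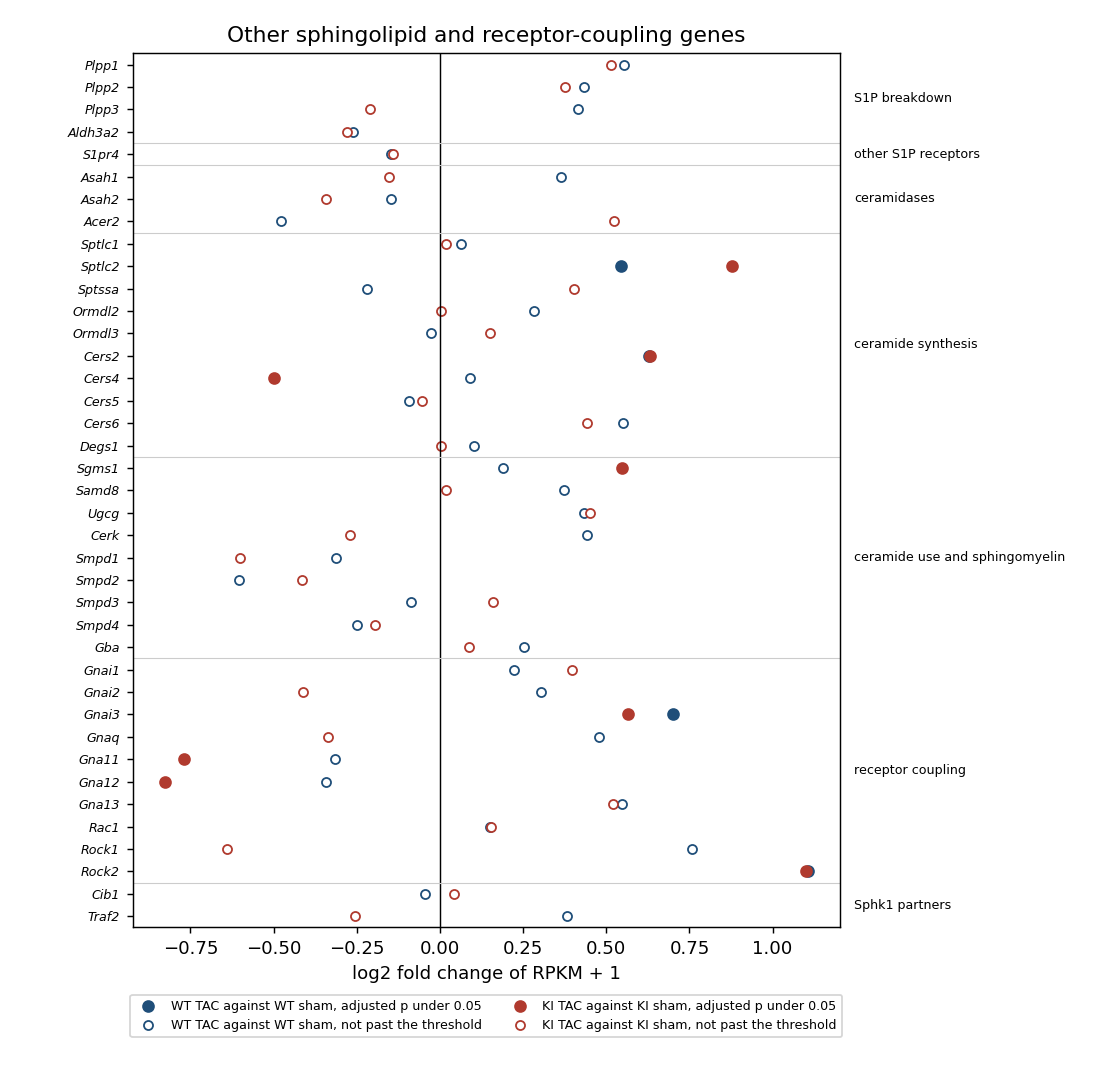
Log2 fold change of RPKM + 1 after TAC for listed pathway genes that were tested, in WT (blue) and KI hearts (red), ordered by their role, with filled points for an adjusted p under 0.05. Filled points are 4 higher in WT hearts and 5 higher and 3 lower in KI hearts, with Rock2 rightmost at 1.11 and 1.10 and Gna12 leftmost at −0.83.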

How the data were processed

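The authors trimmed reads with Trimmomatic 0.39, mapped them to GRCm38 with HISAT2 2.2.1, counted them on Ensembl genes with HTSeq 0.6.1 and ran edgeR 3.18.1 (submitters' processing notes and the study's methods). The values the authors deposited are RPKM: multiplied by exon length they sum to nearly 1 total in every mouse, and the step from counts to RPKM is not given in the sources used here. Depth was recovered from the steps of low values, of which 95.7% to 97.7% per library were whole reads (within 0.05 of a read). Exon lengths came from GENCODE M21, and 13546 of 13552 genes matched. The columns of the table were assigned to mice by their titles, and groups come from the labels for genotype and treatment. Only 3 mice per group limit the precision of every comparison.

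A linear model of log2(RPKM + 1) with 4 groups was fitted to all 12 mice (limma 3.58.1, R 4.3.3, empirical Bayes with an intensity trend). It covered the 11240 genes that reached 1 RPKM in 3 or more mice, with Benjamini-Hochberg adjustment over all of them and a threshold of 0.05. A count test had been planned only for a table of counts. The model was tested on simulated data. Alternatives were a pseudocount of 0.1, no filter, quantile normalization, median-ratio scaling, limma-voom on recovered reads, a fit of the 2 groups compared, leaving out each mouse, and the sham mouse number as a block.

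The members, the pathway list and the marker lists were chosen with earlier results of these data known. Named genes are the 8 members, pathway genes past the threshold (values for at most the 6 largest per genotype), the 5 genes with the highest Pearson correlation to Sphk1 (predicted genes and pseudogenes passed over) and markers of the lists. Rock1 was added beside Rock2. Promoter sequences are from RefSeq on GRCm38.p6, where 7 of the 8 members matched and S1pr1 did not. Python 3.11.15, pandas 2.3.3, numpy 2.4.6 and matplotlib 3.10.9 were used. The values of some pathway genes are not reported here.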

Additional observations from a re-analysis of the deposited data

Results flagged for a closer look

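S1pr2 was flagged because all 3 WT TAC hearts lay above the mean of WT sham hearts while all 3 KI TAC hearts lay below the mean of KI sham hearts. The test of this difference, the interaction of genotype and surgery, gave −0.76 on the log2(RPKM + 1) scale with an SE of 0.26, an unadjusted p of 0.0106 and a limma adjusted p of 0.220, so it failed the correction. How many of all genes show this pattern was not counted, and the flag used the same hearts as the test. Of all genes, 14.8% had an interaction at an unadjusted p under 0.05. With a pseudocount of 0.1 the interaction was −1.27, and with limma-voom on recovered reads −1.33. Under the alternatives its adjusted p lay between 0.101 and 0.472. S1pr2 had 159 to 477 recovered reads per library, and at a few RPKM the added 1 shrinks its changes.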

How the results depend on the processing

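For the 7 members other than Sphk1, limma-voom and the fit of 2 groups each called 2 in KI hearts in place of 1 (Spns2 and S1pr1), and leaving out single mice gave 0 to 3 calls in KI and 0 to 1 in WT hearts. Pathway genes called higher in KI hearts numbered 5 of 40 with values as deposited (8.57% of all genes), 8 after quantile normalization (12.1% of all genes), 10 after median-ratio scaling (12.8% of all genes) and 2 in the fit of 2 groups. Without the expression filter 5 were lower in KI and 1 in WT hearts. Leaving out single mice gave 1 to 6 (WT, higher), 2 to 8 (KI, higher) and 1 to 4 (KI, lower). The share of all genes is not given for the fit of 2 groups, the fits without the filter or those without single mice. Counts from those fits are therefore not read against the background. With S1pr4 and S1pr5 counted, the mean S1pr1 share was 70.9% in KI sham and 86.6% in KI TAC hearts, against 73.7% and 88.2%. Sphk2 changed sign after quantile normalization in WT (−0.0188), after median-ratio scaling in KI hearts (0.0108) and in its interaction (0.00256). Near-zero values also changed sign when 1 mouse was left out. These ranges were −0.0334 to 0.11 (Sphk2, WT), −0.33 to 0.0468 (Sphk2, KI) and −0.37 to 0.0110 (Sphk2, interaction). They were −0.32 to 0.16 (S1pr1, WT), −0.00112 to 0.27 (Sgpl1, WT), −0.33 to 0.0567 (Sgpl1, KI) and −0.11 to 0.35 (Spns2, interaction). Between sham groups they were −0.00212 to 0.16 (Sphk1), −0.0972 to 0.31 (S1pr1), −0.0568 to 0.26 (S1pr2) and −0.13 to 0.0762 (Sgpp1). The Sphk1 difference between KI TAC and WT TAC hearts ran from 1.91 to 3.10. With a pseudocount of 0.1 the Sphk1 change was 2.29 in WT and 5.03 in KI hearts, and with limma-voom 2.54 and 5.30. The labels do not say whether the mouse numbers shared by sham groups pair the mice. Deviations of same-numbered mice had r of −0.225, −0.302 and 0.440, which cannot settle this with 3 mice per group. With the number as a replicate block 0 of the 7 members other than Sphk1 were called, as without it. The cause of these changes was not tested. Only 3 mice per group and a wide spread within the TAC groups limit what can be seen, and changes of the members smaller than their intervals can be missed.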
